A study of Mus musculus with 33 samples.

Results

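The genes described here are 10 imprinted genes of the mouse, chosen by symbol: Dlk1, Meg3, Rian, Mirg, H19, Igf2, Peg10, Grb10, Peg3 and Cdkn1c. They were read from an RNA-seq table with 37973 rows, each a gene with its level in FPKM (fragments mapped to it, scaled by transcript length and by the mapped fragments of the library). All 10 symbols were present, on 11 rows, because Rian is the symbol of 2 rows. The row under ENSMUSG00000091793 was used for Rian, and the other is a snoRNA inside the Rian gene at or under 0.00503 FPKM in every library. All 10 genes had at least 1 FPKM in all 30 libraries used.

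The cells were primary mouse embryonic fibroblasts, taken from embryos at 14 to 15 days post coitum and treated with doxycycline at 1 µg/ml. Every cell carried Col1a1-OSKM+/-, a doxycycline-driven cassette of Pou5f1, Sox2, Klf4 and Myc, with Rosa26-rtTA+/-, the activator it needs, and Oct4-GFP+/-, a reporter of the endogenous Pou5f1 gene. The Dppa2/4 arm also overexpressed Dppa2 and Dppa4, proteins of pluripotent and germ cells, from lentivirus, and the control arm carried a control overexpression whose insert is not given in the labels. On days 2, 4, 8, 11 and 14 the cells were sorted by Thy1, a fibroblast surface protein lost during reprogramming, by SSEA1, a surface sugar gained during it, and by GFP, which marks cells that have turned Oct4 on; on days 8 to 14 the Thy1 and SSEA1 gates held GFP-negative cells. There were 13 control and 17 Dppa2/4 libraries, 1 for each arm, day and gate, so no group was replicated. A stratum below is a day and gate sampled in both arms, of which there were 13. The Thy1+SSEA1- gate gave those of days 2, 4, 8 and 14, and the Thy1-SSEA1- gate those of days 2, 4, 8 and 11. From Thy1-SSEA1+ cells came days 8, 11 and 14, and from GFP+ cells days 11 and 14. The labels do not say whether libraries came from separate cultures or embryos, so the p-values below measure only the spread between these libraries, which may be technical.

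An imprinted gene is expressed from the copy inherited from 1 parent and is silent, or nearly so, on the other, because methylation laid down on CpG dinucleotides in the egg or sperm is kept through development. Imprinted genes lie in clusters under shared control regions, act largely on growth of the fetus and placenta, and their marks can be lost when cells are reprogrammed. The RNA level measured here is summed over both parental copies, so it does not show whether a gene was still imprinted.

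Dlk1, Meg3, Rian and Mirg lie in the Dlk1-Dio3 cluster of chromosome 12. Dlk1 (chr12:109452823-109463336, plus strand, GRCm38) encodes a membrane ligand related to the Notch ligands and is expressed from the paternal copy. Meg3 (also called Gtl2; chr12:109541001-109571726, plus strand), Rian (chr12:109603940-109661716, plus strand) and Mirg (chr12:109729764-109749460, plus strand) are non-coding RNAs expressed from the maternal copy. Rian hosts snoRNAs and all 3 host microRNAs. On chromosome 7, H19 (chr7:142575529-142578143, minus strand) is a maternally expressed non-coding RNA, Igf2 (chr7:142650766-142666816, minus strand) its paternally expressed neighbour that encodes a fetal growth factor, and Cdkn1c (chr7:143458339-143461050, minus strand) the maternally expressed inhibitor of cyclin-dependent kinases also called p57. Peg3 (chr7:6703892-6730431, minus strand), on the same chromosome but far from these, encodes a paternally expressed zinc finger protein. Peg10 (chr6:4747306-4760517, plus strand) is a paternally expressed gene derived from a retrotransposon and needed for the placenta, and Grb10 (chr11:11930508-12038683, minus strand) encodes an adaptor that dampens insulin and growth factor signalling, expressed from the maternal copy in most tissues. The identifiers of Rian and Mirg in the table are not in the annotation used, so their coordinates were taken by symbol. Meg3 (Gm26906), Igf2 (Igf2os) and Cdkn1c (Gm44732) have a gene on the opposite strand and Igf2 overlaps Gm49394; the strand setting of the counting is not given in the sources used here, so reads of such partners cannot be told apart.

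The starts of 5 members that the results below turn on are shown with CpG dinucleotides in capitals. Imprinting methylation is laid on CpG dinucleotides, but these are transcription starts and were not chosen as imprint control regions. Each is 250 bases before to 50 after a start annotated by RefSeq on GRCm38.p6, 5′ to 3′ on the gene's strand. Promoters of 7 of the 10 genes matched, 12 in all.
Dlk1 promoter, chr12:109452573-109452872, plus strand: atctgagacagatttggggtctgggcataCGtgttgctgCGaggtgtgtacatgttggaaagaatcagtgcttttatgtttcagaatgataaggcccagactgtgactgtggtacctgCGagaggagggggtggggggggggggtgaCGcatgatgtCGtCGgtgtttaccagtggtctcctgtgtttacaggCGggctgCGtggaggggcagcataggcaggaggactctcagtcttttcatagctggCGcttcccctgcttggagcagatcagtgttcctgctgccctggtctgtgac
Meg3 promoter, chr12:109540746-109541045, plus strand: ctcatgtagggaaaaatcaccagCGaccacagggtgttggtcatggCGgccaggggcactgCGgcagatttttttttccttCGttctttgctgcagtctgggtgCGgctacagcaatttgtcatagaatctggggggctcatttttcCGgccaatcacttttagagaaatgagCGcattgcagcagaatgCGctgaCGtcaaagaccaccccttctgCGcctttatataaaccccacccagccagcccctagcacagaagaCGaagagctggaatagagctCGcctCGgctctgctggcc
Rian promoter, chr12:109603695-109603994, plus strand: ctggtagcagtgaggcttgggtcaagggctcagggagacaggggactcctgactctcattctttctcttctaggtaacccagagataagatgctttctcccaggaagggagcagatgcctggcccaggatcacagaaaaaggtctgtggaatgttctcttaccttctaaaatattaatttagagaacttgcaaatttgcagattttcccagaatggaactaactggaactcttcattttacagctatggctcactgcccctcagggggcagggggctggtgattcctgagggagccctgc
Grb10 promoter, chr11:12037371-12037670, minus strand: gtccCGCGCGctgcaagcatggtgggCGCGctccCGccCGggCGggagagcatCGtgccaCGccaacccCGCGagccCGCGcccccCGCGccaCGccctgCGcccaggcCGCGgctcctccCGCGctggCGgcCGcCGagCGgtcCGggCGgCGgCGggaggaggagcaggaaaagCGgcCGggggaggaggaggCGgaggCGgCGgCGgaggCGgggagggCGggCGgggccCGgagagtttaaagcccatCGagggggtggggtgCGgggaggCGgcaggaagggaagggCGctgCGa
Peg3 promoter, chr7:6730370-6730669, minus strand: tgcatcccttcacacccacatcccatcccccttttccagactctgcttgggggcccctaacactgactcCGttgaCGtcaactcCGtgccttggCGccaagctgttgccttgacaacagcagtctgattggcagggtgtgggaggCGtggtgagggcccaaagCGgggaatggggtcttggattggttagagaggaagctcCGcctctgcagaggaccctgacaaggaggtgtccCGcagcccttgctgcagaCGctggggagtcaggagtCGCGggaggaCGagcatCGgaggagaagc
The motif CG reads the same on both strands. It occurred 9 times at Dlk1, 13 times at this Meg3 start and 13 times at Peg3, 45 times at this Grb10 start and not at all at Rian. Among the 32851 promoters of the same length in the RefSeq table the median was 7, 94.6% held at least 1, 37.9% held 13 or more and 1.93% held 45 or more. The motif TGCCGC, the sequence bound by the imprint-keeping protein Zfp57 when methylated, was searched on both strands (TGCCGC or GCGGCA, each of which contains a CG). It occurred once at this Meg3 start, once at this Grb10 start and once at 1 of the 4 Igf2 starts, and 11.6% of all promoters held it. These are matches of letters, and neither methylation nor binding was measured in the files used here.

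The non-coding members carry microRNAs. Hairpins found inside the genes in RefSeq numbered 1 in Meg3, 3 in Rian, 14 in Mirg, 1 in H19 and 1 in the protein-coding gene Igf2. The Meg3 count is short, because mature miR-1906 also lies in Meg3, apart from the miR-770 pair. An example from each of the 4 non-coding hosts is shown, and also miR-453 and miR-496a-5p, the only mature microRNAs in these hosts and Igf2 that shared a seed (bases 2 to 8, in capitals).
mmu-miR-770-5p, in Meg3: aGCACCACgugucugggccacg
mmu-miR-370-3p, in Rian: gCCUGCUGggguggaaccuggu
mmu-miR-410-3p, in Mirg: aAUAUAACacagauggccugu
mmu-miR-675-5p, in H19: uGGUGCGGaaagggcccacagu
mmu-miR-453, in Mirg: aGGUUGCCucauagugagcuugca
mmu-miR-496a-5p, in Mirg: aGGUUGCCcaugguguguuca
The libraries were made from polyA RNA and give the level of the host RNAs; mature microRNAs were not measured.

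The depth implied by the lowest values was 21.4 to 42.7 M fragments per library (M, mega), with a median of 30.2 M. Dppa2 was 0.149 to 66.1 FPKM in the control libraries and 43.2 to 612 FPKM in 16 of the 17 Dppa2/4 libraries. In GFP+ cells the arms overlapped in both Dppa2 and Dppa4. Dppa2 was there 66.1 and 45.4 FPKM in control (days 11 and 14) and 49.3, 61.5 and 54.0 in Dppa2/4 libraries (days 8, 11 and 14). Dppa4 was 85.0 and 91.1 FPKM in control and 66.7, 83.8 and 97.8 in Dppa2/4 libraries of the same days. The library labelled Dppa2/4 day 4 Thy1+SSEA1- went against its label, with Dppa2 at 0.354 and Dppa4 at 0.409 FPKM, the level of control libraries in the SSEA1- gates. Another library, control day 11 GFP+, has a description that names another gate. Results that rest on either are given with and without it where that changes a call. Marker sums separated GFP+ cells from the Thy1+SSEA1- and Thy1-SSEA1- gates. The sum of 8 fibroblast genes, Thy1 among them, was 755 to 3474 FPKM in Thy1+SSEA1- and 1319 to 8073 in Thy1-SSEA1- libraries. It was 420 to 449 in Thy1+SSEA1+, 180 to 900 in Thy1-SSEA1+ and 192 to 341 in GFP+ libraries, and so did not follow the Thy1 gate. The sum of 8 pluripotency genes was 1.36 to 196 in the Thy1+SSEA1- and Thy1-SSEA1- gates and 3066 to 5546 in GFP+.

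**Figure D1:**
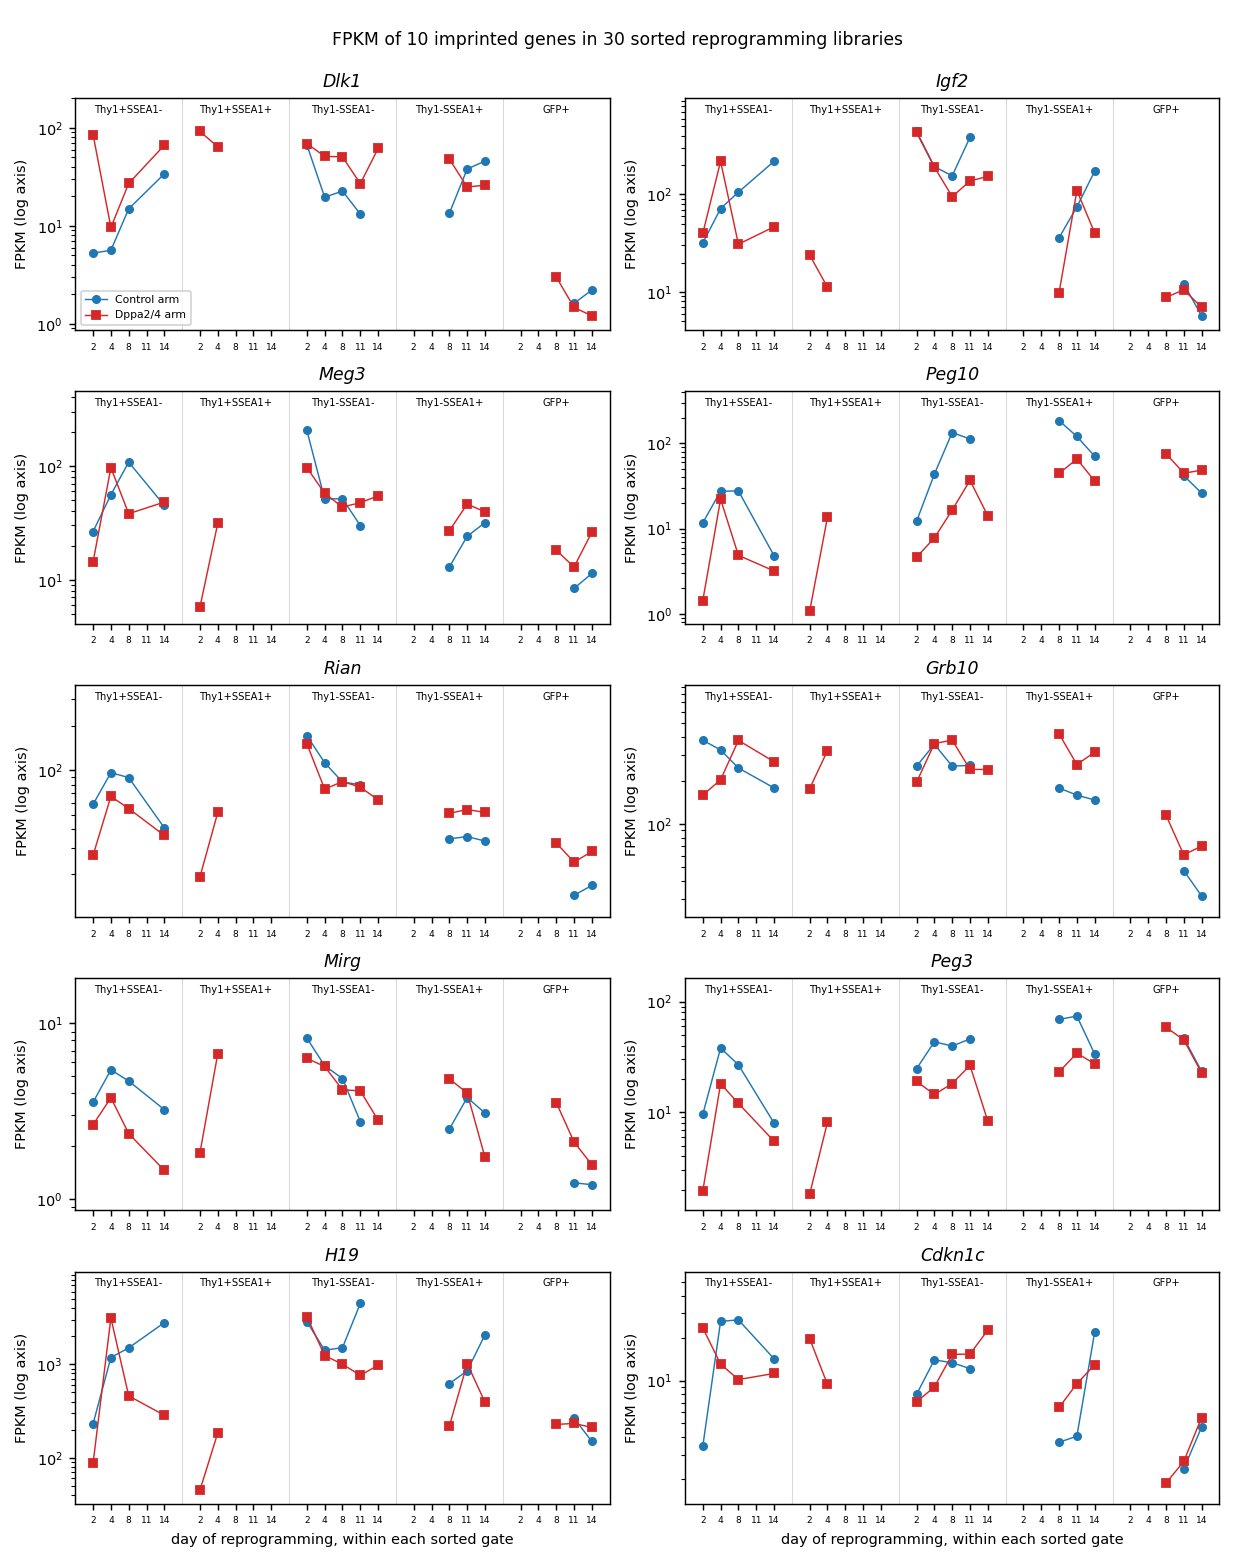
FPKM (log axis) of each of the 10 genes against day within each sorted gate; each point is 1 library, blue circles control and red squares Dppa2/4, and lines join days of a gate. The 5 GFP+ libraries have Dlk1 between 1.21 and 3.004 FPKM, under every other library, while the ranges of Peg3 and Peg10 in GFP+ overlap those of the Thy1-SSEA1+ gate.

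FPKM is scaled by transcript length, so levels can be set side by side between genes. Ordered by the median over the 30 libraries, H19 was at 807 FPKM, Grb10 at 242, Igf2 at 73.1, Rian at 53.3, Meg3 at 38.8, Peg10 at 27.6, Dlk1 at 26.5, Peg3 at 24.1, Cdkn1c at 10.7 and Mirg at 3.55. The ranges of neighbours in this order overlapped throughout. Peg10 varied most between libraries, 171-fold from 1.08 to 185 FPKM, then H19, 99.6-fold from 45.03 to 4484. Mirg varied least, 6.85-fold from 1.20 to 8.25 FPKM.

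Dlk1 had its highest levels in the early libraries of the Dppa2/4 arm and its lowest in GFP+ cells. In Thy1+SSEA1- cells it was 5.27, 5.63, 14.9 and 33.9 FPKM on days 2, 4, 8 and 14 in control and 85.2, 9.63, 27.1 and 66.6 in Dppa2/4 libraries. In Thy1-SSEA1- cells it was 67.2, 19.6, 22.6 and 13.2 on days 2, 4, 8 and 11 in control and 69.1, 51.2, 50.6, 26.9 and 61.6 on days 2, 4, 8, 11 and 14 in Dppa2/4 libraries. Apart from the first day, the Thy1-SSEA1- libraries of the Dppa2/4 arm were all above those of control. In Thy1-SSEA1+ cells on days 8, 11 and 14 Dlk1 was 13.4, 38.0 and 45.8 in control and 48.0, 24.9 and 26.0 in Dppa2/4 libraries. In GFP+ cells it was 1.62 and 2.21 on days 11 and 14 in control and 3.004, 1.47 and 1.21 on days 8, 11 and 14 in Dppa2/4 libraries, a range that overlapped with no other gate.

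Meg3 and Rian were both highest in control Thy1-SSEA1- cells on day 2. Rian had its lowest values in GFP+ cells, and Meg3 in the day 2 Thy1+SSEA1+ library and then GFP+ cells. In Thy1+SSEA1- cells Rian was 59.1, 96.5, 89.4 and 41.0 FPKM on days 2, 4, 8 and 14 in control and 26.8, 66.7, 55.3 and 36.4 in Dppa2/4 libraries, lower on each day, also on day 4, where Dppa2 was at control level. In Thy1-SSEA1- cells it was 171, 113, 83.4 and 80.0 on days 2, 4, 8 and 11 in control and 151, 74.7, 84.0, 77.1 and 63.3 on days 2 to 14 in Dppa2/4 libraries. In both arms the last day of this gate was below the first. In Thy1-SSEA1+ cells Rian was 34.6, 35.8 and 33.4 in control and 51.4, 54.5 and 52.1 in Dppa2/4 libraries, and in GFP+ cells 14.4 and 16.8 in control and 32.5, 24.1 and 28.5 in Dppa2/4 libraries, so that in both gates the arms did not overlap and Dppa2/4 was the higher. The share of all genes whose arms do not overlap in a gate was not counted. With so few libraries, non-overlap of the arms here and below only describes the values.

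Meg3 in Thy1+SSEA1- cells was 26.5, 55.8, 108 and 44.9 FPKM in control and 14.4, 96.4, 38.0 and 48.1 in Dppa2/4 libraries on days 2, 4, 8 and 14. In Thy1-SSEA1- cells it was 205, 51.3, 51.5 and 29.9 in control on days 2 to 11 and 96.6, 57.5, 43.5, 47.6 and 54.5 in Dppa2/4 libraries on days 2 to 14. These ranges overlapped, and after day 2 the Thy1-SSEA1- values lay close together. In Thy1-SSEA1+ cells Meg3 was 12.95, 24.1 and 31.8 in control and 26.98, 46.3 and 39.5 in Dppa2/4 libraries, and in GFP+ cells 8.41 and 11.4 in control and 18.2, 12.97 and 26.2 in Dppa2/4 libraries. Mirg was low throughout, with medians of 4.85 FPKM in Thy1-SSEA1-, 3.43 in Thy1-SSEA1+, 3.39 in Thy1+SSEA1- and 1.56 in GFP+ libraries, and each of these ranges overlapped the next.

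H19 and Igf2 moved over wide ranges and largely together. H19 in Thy1+SSEA1- cells was 231, 1183, 1502 and 2796 FPKM in control and 87.6, 3139, 459 and 285 in Dppa2/4 libraries on days 2, 4, 8 and 14. The highest of the latter, on day 4, is the library whose Dppa2 was at control level. In Thy1-SSEA1- cells H19 was 2859.9, 1418, 1507 and 4484 in control on days 2, 4, 8 and 11 and 3241, 1242, 1002, 763 and 977 in Dppa2/4 libraries on days 2 to 14. In Thy1-SSEA1+ cells it was 622, 851 and 2076 in control and 218, 1018 and 393 in Dppa2/4 libraries on days 8, 11 and 14. In GFP+ cells the arms overlapped, at 265 and 149 in control and 227, 233 and 211 in Dppa2/4 libraries, a narrower spread than in any gate with more than 2 libraries.

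Igf2 in Thy1+SSEA1- cells was 31.7, 71.6, 105 and 218 FPKM in control and 39.9, 218, 30.9 and 46.5 in Dppa2/4 libraries on days 2, 4, 8 and 14. In Thy1-SSEA1- cells it was 444, 193, 155 and 386 in control on days 2 to 11 and 431, 191, 94.9, 137 and 153 in Dppa2/4 libraries on days 2 to 14. The arms nearly coincided there on days 2 and 4. In Thy1-SSEA1+ cells Igf2 was 35.9, 74.6 and 173 in control and 9.82, 109 and 40.3 in Dppa2/4 libraries, and in GFP+ cells 12.1 and 5.67 in control and 8.80, 10.5 and 6.96 in Dppa2/4 libraries. Cdkn1c was 3.43 to 26.97 FPKM in Thy1+SSEA1-, 7.09 to 22.8 in Thy1-SSEA1-, 3.66 to 22.1 in Thy1-SSEA1+ and 1.88 to 5.49 in GFP+ libraries. Its lowest value outside the GFP+ gate, 3.43 FPKM, was that of control day 2 Thy1+SSEA1- cells.

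Peg10 and Peg3 were the only members whose highest medians were those of the Thy1-SSEA1+ and GFP+ gates. Peg10 in Thy1+SSEA1- cells was 11.7, 27.5, 27.7 and 4.82 FPKM in control and 1.43, 22.1, 4.87 and 3.20 in Dppa2/4 libraries on days 2, 4, 8 and 14. In Thy1-SSEA1- cells it was 12.2, 43.5, 134 and 112 in control on days 2, 4, 8 and 11 and 4.65, 7.77, 16.5, 36.8 and 14.1 in Dppa2/4 libraries on days 2 to 14. On every shared day of these 2 gates the Dppa2/4 library was the lower. That includes the day 4 Thy1+SSEA1- library whose Dppa2 was at control level. In Thy1-SSEA1+ cells Peg10 was 185, 120.3 and 70.5 in control and 44.4, 65.5 and 36.1 in Dppa2/4 libraries, which did not overlap, and in GFP+ cells 41.8 and 26.1 in control and 75.8, 44.7 and 48.4 in Dppa2/4 libraries.

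Peg3 varied in much the same way. It was 9.58, 38.1, 26.9 and 8.01 FPKM in control and 1.95, 18.1, 12.1 and 5.49 in Dppa2/4 libraries of the Thy1+SSEA1- gate on days 2, 4, 8 and 14. In Thy1-SSEA1- cells it was 24.7, 43.3, 39.6 and 46.0 in control and 19.04, 14.5, 18.2, 26.5 and 8.35 in Dppa2/4 libraries. The arms overlapped there because the Dppa2/4 value on day 11 was above the control value on day 2. In Thy1-SSEA1+ cells Peg3 was 68.9, 73.9 and 33.6 in control and 23.1, 34.3 and 27.3 in Dppa2/4 libraries, and in GFP+ cells 46.8 and 23.5 in control and 58.6, 45.1 and 22.7 in Dppa2/4 libraries, where the arms lay close on days 11 and 14.

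Grb10 was abundant until the GFP+ stage. Its ranges were 158 to 382 FPKM in Thy1+SSEA1-, 195 to 383 in Thy1-SSEA1-, 147 to 423 in Thy1-SSEA1+ and 31.5 to 115 in GFP+ libraries, and GFP+ overlapped with no other gate. In Thy1-SSEA1+ cells it was 178, 159 and 147 in control and 423, 259 and 316 in Dppa2/4 libraries on days 8, 11 and 14, with no overlap between the arms. In GFP+ cells it was 47.3 and 31.5 on days 11 and 14 in control and 115, 60.8 and 70.1 on days 8, 11 and 14 in Dppa2/4 libraries, again without overlap. The share of all genes with arms apart in this way was not counted.

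The 2 Thy1+SSEA1+ libraries, an early gate sampled on days 2 and 4 in the Dppa2/4 arm alone, held the lowest Meg3 (5.78), H19 (45.03), Peg10 (1.08) and Peg3 (1.83 FPKM) of all 30 libraries, all 4 on day 2. On day 4 these were 31.4, 185, 13.6 and 8.15 FPKM. Dlk1 in the same libraries was 91.9 and 64.1 FPKM, the former the highest of the series. The day 2 pattern was not particular to this gate. Thy1+SSEA1- cells of the same arm and day were close in Peg10 (1.43), Peg3 (1.95) and Dlk1 (85.2 FPKM). Their H19 was 87.6 and their Meg3 14.4 FPKM.

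Which imprinted genes changed as cells turned on Oct4 was asked by comparing GFP+ with Thy1-SSEA1+ cells of the same arm and day, over 5 pairs (control days 11 and 14, Dppa2/4 days 8, 11 and 14). Of the 10 genes 8 were lower in GFP+ cells and none was higher; over all genes tested 25.9% were lower and 19.5% higher. The test here and below was limma on log2(FPKM + 1), with Benjamini-Hochberg adjustment over all genes tested and 0.05 as the threshold; a difference on this scale understates the change of low genes, and no member was higher at an unadjusted p under 0.05 either, where 23.6% of all genes were. Dlk1 fell from 36.5 ± 10.8 to 1.90 ± 0.718 FPKM (mean ± SD, n = 5 each), by 3.68 on the log2 scale (SE 0.11, adjusted p = 0.000274). Grb10 fell from 261 ± 115 to 64.9 ± 31.6 FPKM (mean ± SD, n = 5 each; log2 difference -2.00, SE 0.094, adjusted p = 0.000502). Both were lower in 5 of 5 pairs, Dlk1 by 3.39 to 3.90 and Grb10 by 1.72 to 2.18 on the log2 scale.

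The maternal RNAs of the Dlk1-Dio3 cluster fell with Dlk1, though less far. Rian fell from 45.4 ± 9.97 to 23.3 ± 7.61 FPKM (mean ± SD, n = 5 each; log2 difference -0.97, SE 0.11, adjusted p = 0.00161), and Meg3 from 33.7 ± 9.12 to 15.4 ± 6.99 FPKM (mean ± SD, n = 5 each; log2 difference -1.14, SE 0.21, adjusted p = 0.00639). Mirg had a log2 difference of -0.62 (SE 0.18, adjusted p = 0.0280). All 3 were lower in 5 of 5 pairs. The call for Mirg was lost without control day 11, whose GFP+ library is described under another gate (adjusted p = 0.0694), and without control day 14 (0.0844) or Dppa2/4 day 11 (0.0843). It was also lost under quantile normalization (log2 difference -0.33, adjusted p = 0.176), with no filter on low values (0.0696) and with no block (0.104).

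In the chromosome 7 genes Igf2 fell from 81.4 ± 63.3 to 8.81 ± 2.61 FPKM (mean ± SD, n = 5 each; log2 difference -2.60, SE 0.59, adjusted p = 0.0136), and Cdkn1c from 11.0 ± 7.05 to 3.42 ± 1.57 FPKM (mean ± SD, n = 5 each; log2 difference -1.32, SE 0.21, adjusted p = 0.00403), each in 5 of 5 pairs. H19 had means of 911 ± 728 FPKM in Thy1-SSEA1+ and 217 ± 42.6 in GFP+ cells (mean ± SD, n = 5 each). It was lower in 4 of 5 pairs with a log2 difference of -1.69 (SE 0.51, adjusted p = 0.0363), the exception being Dppa2/4 day 8. That call was lost when any pair but Dppa2/4 day 8 was left out, with adjusted p of 0.0525 to 0.105, and with no filter (0.0788). Peg10 (log2 difference -0.45, SE 0.37, adjusted p = 0.345) and Peg3 (log2 difference 0.057, SE 0.29, adjusted p = 0.890) did not pass, and their 95% intervals ran from -1.34 to 0.43 and from -0.64 to 0.76.

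The median difference was -1.23 over the 10 genes and -0.057 over all genes. Of 54 other imprinted genes 36 were tested, with a median of -0.50: 18 were lower and 7 higher. The lowest were Nnat, which encodes a small membrane protein of neural and fat tissue (log2 difference -2.63, SE 0.15, adjusted p = 0.000679, at 32.7 to 105 FPKM in Thy1-SSEA1+ and 2.93 to 18.7 in GFP+ libraries), Plagl1, a zinc finger factor that restrains growth (log2 difference -1.90, SE 0.21, adjusted p = 0.00157), and Airn, the non-coding RNA that silences the Igf2r cluster (log2 difference -1.84, SE 0.26, adjusted p = 0.00299). The highest were Phlda2, a brake on placental growth (log2 difference 1.16, SE 0.26, adjusted p = 0.0134), Cobl, an actin nucleator (log2 difference 1.09, SE 0.16, adjusted p = 0.00314), and Ppp1r9a, a neighbour of Peg10 (log2 difference 0.80, SE 0.11, adjusted p = 0.00254). Of 13 genes that set, keep or remove imprinting methylation, 11 were higher and 2 lower, with a median of 1.15. The 11 include Tet1 and Tet2, which act to remove methylation. Dnmt3l, the cofactor of the DNA methyltransferases that set imprints, was 1.03 to 118 FPKM in Thy1-SSEA1+ and 103 to 329 in GFP+ libraries (log2 difference 3.33, SE 0.57, adjusted p = 0.00526). Dppa3, which protects imprints in the early embryo and is also on the pluripotency list, was 1.81 to 53.0 and 53.0 to 176 FPKM (log2 difference 2.51, SE 0.61, adjusted p = 0.0168). Tet3, a dioxygenase that removes methylation (log2 difference -1.36, SE 0.15, adjusted p = 0.00160), and Zfp445, a keeper of imprints (log2 difference -0.36, SE 0.11, adjusted p = 0.0407), were the 2 lower ones.

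Fibroblast markers moved with these falls: 7 of 8 were lower in GFP+ cells, with sums of 180 to 900 FPKM in Thy1-SSEA1+ and 192 to 341 in GFP+ libraries, while 8 of 8 pluripotency markers were higher, with sums of 242 to 1865 and 3066 to 5546. Epithelial markers were lower in 4 of 5, with sums of 308 to 786 and 231 to 283 FPKM. Their part in the imprinted gene differences was not tested. In sorted bulk cells fewer cells of a type and less RNA per cell cannot be told apart.

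**Figure D2:**
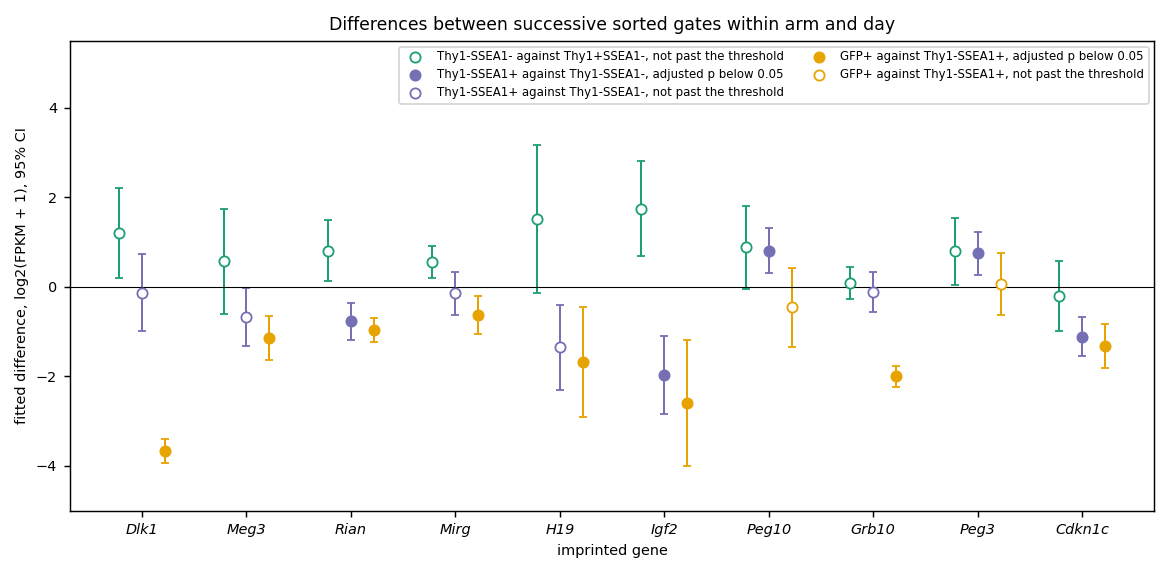
Fitted difference in log2(FPKM + 1) with its 95% interval for each gene between successive gates, within arm and day; filled points passed the threshold. In the step to GFP+ cells Dlk1 stands at -3.68 and Grb10 at -2.00, while Peg10 and Peg3 are at 0.81 and 0.75 in the step to SSEA1+ and have intervals on both sides of 0 in the next.

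The step before this, from Thy1-SSEA1- to Thy1-SSEA1+ cells, split the 10 genes. Over 5 pairs (control days 8 and 11, Dppa2/4 days 8, 11 and 14), 3 genes were lower, where 12.4% of all genes were, and 2 were higher, where 9.55% were. Igf2 fell from 185 ± 115 to 54.0 ± 38.6 FPKM (mean ± SD, n = 5 each; log2 difference -1.96, SE 0.37, adjusted p = 0.0142), Cdkn1c from 15.8 ± 4.15 to 7.33 ± 3.92 FPKM (mean ± SD, n = 5 each; log2 difference -1.11, SE 0.18, adjusted p = 0.0102) and Rian from 77.6 ± 8.46 to 45.7 ± 9.63 FPKM (mean ± SD, n = 5 each; log2 difference -0.77, SE 0.17, adjusted p = 0.0242), each in 5 of 5 pairs. Peg10 rose from 62.7 ± 56.3 to 90.2 ± 62.2 FPKM (mean ± SD, n = 5 each; log2 difference 0.81, SE 0.21, adjusted p = 0.0375) and Peg3 from 27.7 ± 15.4 to 45.5 ± 24.02 FPKM (mean ± SD, n = 5 each; log2 difference 0.75, SE 0.20, adjusted p = 0.0426), also in 5 of 5 pairs. The Thy1-SSEA1+ libraries here are largely those set against GFP+ above, so the 2 steps are not independent.

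Only Cdkn1c kept its call whichever pair was left out (largest adjusted p = 0.0417). The Igf2 call was lost without control day 11 (0.0520). The Rian call was lost without control day 8 (0.0660), control day 11 (0.0879) or Dppa2/4 day 8 (0.0660). The calls for Peg10 and Peg3 were each lost in 4 of the 5 cases: Peg10 kept its call only without control day 11 (adjusted p = 0.0398) and Peg3 only without Dppa2/4 day 14 (0.0428), and the largest adjusted p was 0.106 and 0.112. With no block Rian alone kept its call, and those of Igf2 (0.0652), Cdkn1c (0.0588), Peg10 (0.506) and Peg3 (0.365) were lost. With no filter those of Rian (0.0513), Peg10 (0.0773) and Peg3 (0.0821) were lost, and under quantile normalization that of Peg10 (0.0515).

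H19 was lower in 4 of 5 pairs and did not pass (log2 difference -1.35, SE 0.40, adjusted p = 0.0522), although it did without Dppa2/4 day 11, at -1.79 with an adjusted p of 0.0118, and under quantile normalization, at -1.36 with 0.0373. Meg3 was lower in 5 of 5 pairs with a log2 difference of -0.68 (SE 0.27, adjusted p = 0.117). Dlk1 (log2 difference -0.13, SE 0.36, adjusted p = 0.822), Grb10 (log2 difference -0.11, SE 0.19, adjusted p = 0.712) and Mirg (log2 difference -0.15, SE 0.20, adjusted p = 0.620) had intervals on both sides of 0. The fitted Dlk1 difference was thus near 0 at this step, but its pairs ran from -1.21 to 1.46, with 4 lower and 1 higher. Its large difference came at the next step, over pairs that only partly coincide.

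The 10 genes had a median difference of -0.41, against 0.0057 over all genes, and the 38 other imprinted genes tested one of -0.27, with 7 lower and 2 higher. The lowest were Ndn, which encodes the growth-restraining protein necdin (log2 difference -1.63, SE 0.26, adjusted p = 0.00965), Pon3, a lactonase gene near Peg10 (log2 difference -1.61, SE 0.23, adjusted p = 0.00702), and Airn (log2 difference -1.34, SE 0.25, adjusted p = 0.0143); the 2 higher were Mkrn3, a ubiquitin ligase gene (log2 difference 0.57, SE 0.15, adjusted p = 0.0359), and Peg12 (log2 difference 0.52, SE 0.14, adjusted p = 0.0431). Of the 13 genes that set, keep or remove imprinting methylation 9 were higher and none lower. The largest rises were those of Dppa3 (log2 difference 2.13, SE 0.49, adjusted p = 0.0253) and Tet1, a dioxygenase of pluripotent cells that removes methylation (log2 difference 2.01, SE 0.27, adjusted p = 0.00661). All 8 fibroblast markers were lower and all 8 pluripotency markers higher in the same pairs; their part was not tested.

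Loss of Thy1 among SSEA1- cells was compared over 7 pairs (control days 2, 4 and 8, Dppa2/4 days 2, 4, 8 and 14). No member passed in either direction, where 0.0129% of all genes passed in each, 2 genes higher and 2 lower. Without adjustment 5 of the 10 had p under 0.05 and were higher in Thy1-SSEA1- cells, where 4.85% of all genes did so, and none was lower, where 5.56% were. The 5 were Igf2 (log2 difference 1.75, SE 0.46, adjusted p = 0.207), Dlk1 (log2 difference 1.20, SE 0.44, adjusted p = 0.388), Rian (log2 difference 0.80, SE 0.30, adjusted p = 0.392), Peg3 (log2 difference 0.79, SE 0.33, adjusted p = 0.448) and Mirg (log2 difference 0.55, SE 0.16, adjusted p = 0.238). Mirg was higher in 7 of 7 pairs and Rian, H19, Igf2, Peg10 and Peg3 in 6 of 7. For the last 4 the exception was the pair with the day 4 Thy1+SSEA1- library whose Dppa2 went against its label. The share of all genes higher in as many pairs was not counted. The widest pair difference was that of H19 on day 2 in the Dppa2/4 arm, at 87.6 FPKM in Thy1+SSEA1- and 3241 in Thy1-SSEA1- cells. None of the 39 other imprinted genes tested and none of the 13 that set, keep or remove imprinting methylation passed. The median difference was 0.80 over the 10 genes, 0.098 over the other imprinted genes and 0.0048 over all genes. Over the 8 fibroblast markers it was 0.81 and over the 8 pluripotency markers 0.45, and none of these markers passed. Their part was not tested.

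Change per day was fitted over the 17 SSEA1- libraries with 1 slope for both arms and both gates. Of the 10 genes Mirg fell, by 0.066 per day on the log2 scale (SE 0.016, adjusted p = 0.0211), and none rose; over all genes 4.89% fell and 6.04% rose. No member went up at an unadjusted p under 0.05 by limma, where 14.4% of all genes did. Neither gate alone gave the Mirg call (-0.043 per day with an adjusted p of 0.313 in Thy1+SSEA1-, -0.092 with 0.0528 in Thy1-SSEA1-), and it was lost without the Dppa2/4 day 14 library of either gate (0.0642 and 0.0661). Rian had a slope of -0.056 (SE 0.025, adjusted p = 0.155), which passed without Dppa2/4 day 2 Thy1+SSEA1- (-0.079, adjusted p = 0.0240). Of 40 other imprinted genes tested 3 fell and 3 rose; Mest, a paternally expressed hydrolase gene, fell by 0.16 per day (adjusted p = 0.00183) and Cobl rose by 0.21 per day (adjusted p = 0.0160).

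How Dppa2/4 overexpression bore on the 10 genes was compared within the 13 strata. Peg3 and Peg10 were lower with Dppa2/4 and no member was higher (1, Dlk1, at an unadjusted p under 0.05 by limma, where 23% of all genes were); 7.75% of all genes were lower and 15.6% higher. Peg3 was 37.1 ± 19.7 FPKM in control and 20.6 ± 11.5 FPKM in Dppa2/4 libraries (mean ± SD, n = 13 strata) and fell by 0.86 on the log2 scale, with an SE of 0.15 and an adjusted p of 0.00190; each of the 13 strata had the lower value in the Dppa2/4 arm. Peg10 was 62.8 ± 56.9 FPKM in control and 25.9 ± 21.3 FPKM in Dppa2/4 libraries (mean ± SD, n = 13 strata) and fell by 1.26 with an SE of 0.29 and an adjusted p of 0.00688, with 11 of 13 strata in that direction. Both calls held with any 1 stratum left out, with adjusted p of at most 0.00545 for Peg3 and 0.0154 for Peg10. Without the stratum as a block neither passed (adjusted p = 0.217 and 0.259). Counts of strata here and below include day 4 Thy1+SSEA1- cells, where Dppa2 and Dppa4 were at control level in both libraries. That stratum therefore sets no overexpressing library against control. The log2 differences there were -1.03 for Peg3 and -0.30 for Peg10.

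By gate, the log2 differences of Peg10 on successive days were -2.38, -0.30, -2.29 and -0.47 in Thy1+SSEA1-, -1.22, -2.34, -2.94 and -1.58 in Thy1-SSEA1-, -2.03, -0.87 and -0.95 in Thy1-SSEA1+ and 0.093 and 0.87 in GFP+ cells. Those of Peg3 were -1.84, -1.03, -1.09 and -0.47 in Thy1+SSEA1- cells. They were -0.36, -1.52, -1.08 and -0.77 in the Thy1-SSEA1- gate, -1.53, -1.09 and -0.29 in the Thy1-SSEA1+ gate and -0.053 and -0.045 in the GFP+ gate. In GFP+ cells, where Dppa2 and Dppa4 overlapped between the arms, the difference was thus near 0 for Peg3 and above 0 for Peg10. The difference between strata of Thy1-SSEA1+ or GFP+ cells and strata of SSEA1- cells was tested as an interaction. It did not pass for Peg10 (log2 difference 1.11, SE 0.53, adjusted p = 0.273). Nor did it pass for Peg3 (log2 difference 0.42, SE 0.30, adjusted p = 0.463). The interaction pooled GFP+ strata with Thy1-SSEA1+ strata, and in the latter both genes were lower on each day. It therefore cannot decide whether the difference in GFP+ cells departed from that in the other gates, which was not tested.

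H19 was 1534 ± 1259 FPKM in control and 946 ± 1061 FPKM in Dppa2/4 libraries (mean ± SD, n = 13 strata), lower in 9 of 13 strata, and did not pass (log2 difference -0.88, SE 0.35, adjusted p = 0.0804). With Thy1+SSEA1- cells of day 4 left out, where Dppa2 was at control level in both libraries, the log2 difference was -1.07 and passed (adjusted p = 0.0291). Igf2 was also lower in 9 of 13 strata (log2 difference -0.58, SE 0.30, adjusted p = 0.176). Dlk1 was higher in 9 of 13, including 8 of 8 SSEA1- strata, with a difference of 0.73 (SE 0.31, adjusted p = 0.101). The 8 include the day 4 Thy1+SSEA1- stratum. The 95% intervals of the remaining members were -0.31 to 0.61 for Meg3, -0.34 to 0.33 for Rian, -0.40 to 0.17 for Mirg, -0.11 to 0.72 for Grb10 and -0.46 to 0.61 for Cdkn1c.

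**Figure D3:**
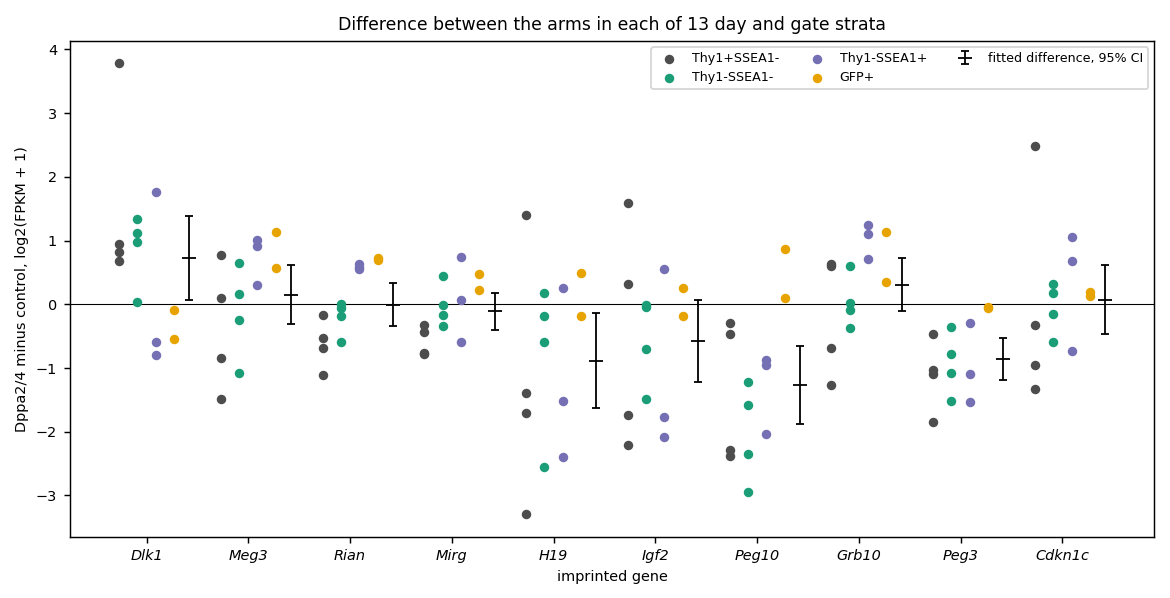
Dppa2/4 minus control in log2(FPKM + 1) for each gene; each dot is 1 of the 13 strata, coloured by gate, and the bar is the fitted difference with its 95% interval. Every Peg3 dot lies under 0, and the Rian dots of Thy1-SSEA1+ and GFP+ cells lie above those of the SSEA1- gates.

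Across the 10 genes the median difference was -0.060, against 0.027 over all genes. The 42 tested among the other imprinted genes had a median of -0.015, and 5 of them were higher and 2 lower in the Dppa2/4 arm. Nnat was 23.0 ± 15.8 FPKM in control and 61.1 ± 54.2 in Dppa2/4 libraries (mean ± SD, n = 13 strata; log2 difference 1.24, SE 0.34, adjusted p = 0.0176), higher in 11 of 13 strata. Pon3 (log2 difference 0.94, SE 0.17, adjusted p = 0.00230) and Airn (log2 difference 0.81, SE 0.16, adjusted p = 0.00322) were each higher in 12 of 13; Airn and Igf2r overlap on opposite strands, so with the strand setting not given their reads cannot be told apart. Slc22a3, a transporter gene of the same cluster (log2 difference -0.56, SE 0.17, adjusted p = 0.0287), and Peg12 (log2 difference -0.40, SE 0.09, adjusted p = 0.00658) were lower. Among the 13 genes that set, keep or remove imprinting methylation Trim28, the corepressor that Zfp57 recruits, was lower in 13 of 13 strata (log2 difference -0.75, SE 0.15, adjusted p = 0.00375), and none was higher. The 13 strata include day 4 Thy1+SSEA1- cells, where Dppa2 was at control level in both libraries.

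Markers of other cells moved with the arm. Of 8 fibroblast markers 3 were lower with Dppa2/4. Their sums in Thy1+SSEA1- libraries were 2401 to 3474 FPKM in control and 755 to 2599.95 in Dppa2/4. In Thy1-SSEA1- libraries they were 1565 to 8073 and 1319 to 7535, and in Thy1-SSEA1+ libraries 180 to 900 and 242 to 709. In GFP+ libraries they were 332 to 341 and 192 to 296. Of 5 epithelial markers 4 were higher. Of 8 trophoblast markers, listed because Peg10 is a placental gene, 3 were tested and 2 of them, Krt7 and Hand1, were higher. The sum was 0.477 to 1.77 FPKM in control and 3.98 to 50.4 in Dppa2/4 Thy1-SSEA1- libraries. The arms overlapped in the other gates, at 0.319 to 1.30 and 0.768 to 45.5 in Thy1+SSEA1-, 6.08 to 40.2 and 11.4 to 37.6 in Thy1-SSEA1+, and 1.97 to 4.65 and 2.75 to 5.48 in GFP+. The placental marker Tpbpa reached at most 0.0297 FPKM in any library. Of 8 pluripotency markers 1, Tfcp2l1, was lower. The part of these in the differences of Peg3 and Peg10 was not tested.

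Rian was the only member whose difference between arms itself differed between gates past the threshold. In the 5 strata of Thy1-SSEA1+ and GFP+ cells it was higher with Dppa2/4 by 0.56 to 0.73 on the log2 scale, and in the 8 SSEA1- strata it ranged from -1.11 to 0.010, lower in 7 of them. In the GFP+ strata Dppa2 and Dppa4 themselves overlapped between the arms. The interaction for Rian was 1.05 (SE 0.18, adjusted p = 0.0209), in the direction of a higher value in the later gates. Of the 10 genes 1 passed higher and none lower, where 0.511% and 0.505% of all genes did. On days 8 to 14 alone, where both kinds of gate were present, it was 0.86 and did not pass (adjusted p = 0.0576); it was also lost without the day 11 Thy1-SSEA1+ (0.0634), day 14 Thy1-SSEA1+ (0.0560) or day 14 GFP+ stratum (0.0520), with the value at 1.03 to 1.06.

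Meg3 and Grb10 were also higher with Dppa2/4 in 5 of 5 strata of the later gates and in 4 of 8 SSEA1- strata, but their interactions did not pass, at 1.03 (SE 0.36, adjusted p = 0.155) for Meg3 and 0.98 (SE 0.31, adjusted p = 0.130) for Grb10. Dlk1 pointed the other way, higher in 8 of 8 SSEA1- strata and in 1 of 5 of the later ones (log2 difference -1.26, SE 0.56, adjusted p = 0.245); without adjustment it was the 1 member lower at p under 0.05 by limma, where 8.84% of all genes were. Among the other imprinted genes Slc22a3 passed (log2 difference 1.02, SE 0.23, adjusted p = 0.0498), with a level of at most 3.90 FPKM in any library. None of the 13 genes that set, keep or remove imprinting methylation passed. Sums of pluripotency markers in Thy1-SSEA1+ cells were 832 to 1865 FPKM in control and 242 to 911 in Dppa2/4 libraries, and those of fibroblast markers 180 to 900 and 242 to 709; their part was not tested.

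How alike the genes ran over the 30 libraries was described by Pearson's r of log2(FPKM + 1), among 17104 genes; the libraries share arms, gates and days, so no test is given. Peg10 and Peg3, on different chromosomes, were each other's most alike gene (r = 0.90). Rian and Meg3 had r = 0.88, Rian and Mirg 0.81, and H19 and Igf2 0.87. Dlk1, in the same cluster as Meg3 and Rian, had r = 0.34 and 0.37 with them. Its most alike genes were Dusp15 (0.91), Speg (0.90) and Tspan7 (0.89).

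For H19 the most alike genes were Sgce (0.93), the imprinted neighbour of Peg10, Ppap2b (0.90) and Itih2 (0.90). For Igf2 they were Dcn (0.94), Efemp1 (0.94) and Serpine2 (0.93), of which Dcn encodes the matrix proteoglycan decorin. For Meg3 they were Gm17639 (0.97), Glt8d1 (0.89) and Dcaf5 (0.89), for Rian Phtf1 (0.91), Mthfd2l (0.91) and Fam92a (0.91), and for Grb10 Dpysl3 (0.93), Hoxc10 (0.93) and Oxct1 (0.91). The table's Gm17639 could not be placed in the annotation used. For Cdkn1c they were Pts (0.83), Tmbim1 (0.83) and 5031425E22Rik (0.82).

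**Figure D4:**
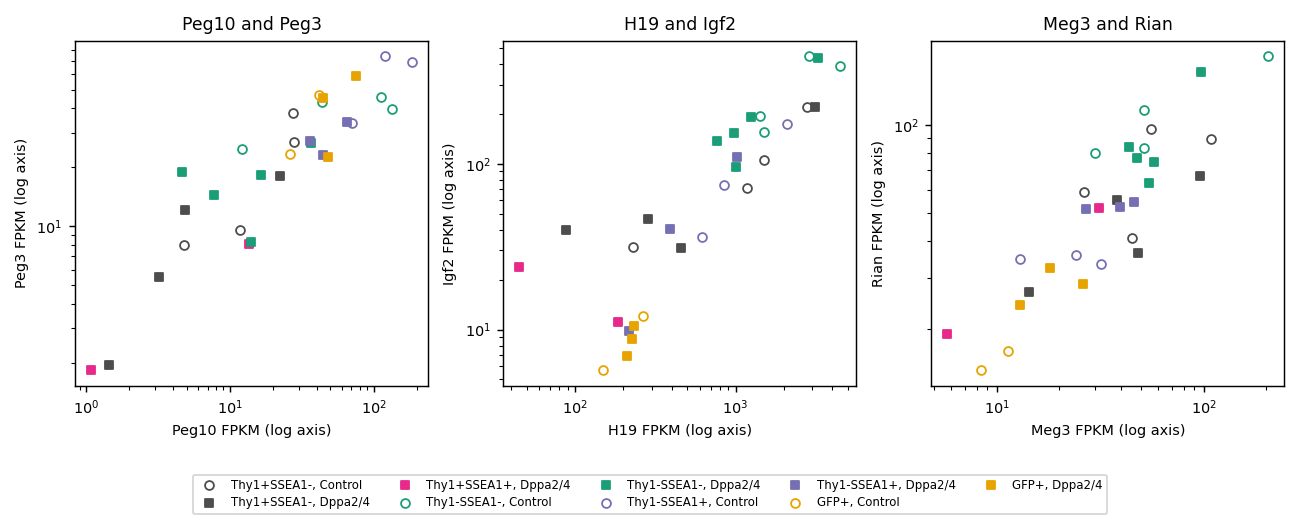
FPKM of Peg10 and Peg3, H19 and Igf2, and Meg3 and Rian (log axes) in the 30 libraries, coloured by gate, open circles control and filled squares Dppa2/4. In each panel the pair rises together (r = 0.90, 0.87 and 0.88), and GFP+ libraries sit at the low end of Igf2, between 5.67 and 12.1 FPKM.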

How the data were processed

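Gene levels of polyA RNA were deposited by the authors as FPKM, made with TopHat2 and Cuffdiff on mm10 per the submitters' processing notes; tool versions, annotation, strand setting and cross-library scaling are not given in the sources used here. Of 33 value columns 30 matched a sample's title; 3 were not used, and 3 samples were not analysed here. Depth was estimated from the lowest values, and gives no counting interval.

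Values were taken as log2(FPKM + 1) and a gene entered a fit if 2 or more of its libraries had 1 FPKM or more. Differences were fitted with limma 3.58.1 (R 4.3.3; lmFit, eBayes with trend), two-sided, with stratum, or arm and day, as a block, and Benjamini-Hochberg adjustment over all genes tested. The fit was tested on simulated data. Intervals are 95%. Coordinates are from GENCODE on GRCm38, where 32914 identifiers matched; sequences are from RefSeq.

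All 10 members were named. Of the other imprinted genes up to 3, and of the genes that set, keep or remove imprinting methylation up to 2, were named per direction and comparison by size of change past the threshold, and for likeness the 3 genes with the highest r. Members and lists were chosen with earlier results of these data known. Alternatives were another pseudocount, no filter, quantile normalization, no block, doubted libraries left out and each pair, stratum or library left out. Muscle, endothelial, immune and neural markers were also listed: with Dppa2/4, 1 of 2, 1 of 3, 2 of 2 and 1 of 2 tested were higher, and 1 endothelial marker was lower.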

Additional observations from a re-analysis of the deposited data

Results flagged for a closer look

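Rian stood out because its difference between the arms itself differed between kinds of gate, by 1.05 on the log2 scale (SE 0.18, adjusted p = 0.0209 by limma). It was higher with Dppa2/4 in 5 of 5 strata of Thy1-SSEA1+ and GFP+ cells and in 1 of 8 strata of SSEA1- cells. The SSEA1- strata include days 2 and 4, which the later gates lack; on days 8 to 14 alone the value was 0.86 (adjusted p = 0.0576). Dppa2 and Dppa4 overlapped between the arms in the GFP+ strata. The cause was not tested.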

How the results depend on the processing

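Over the alternatives other than leaving out each unit in turn (another pseudocount, no filter, quantile normalization, no block, a doubted library omitted, 1 gate alone or days 8 to 14 alone), 285 of the members' values kept their direction and side of the threshold, 19 lost a call, 2 gained one and 14 changed sign; when each stratum, pair or library was left out in turn these were 534, 24, 3 and 39. No value that changed sign passed the threshold, with or without the change (smallest adjusted p = 0.283). The cause of each shift below was not tested. Adding the rtTA-MEF pair was not run. The labels give no replicate numbers, so blocks are strata or pairs of the same arm and day. With FPKM alone, counting error cannot be given.

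For Dppa2/4 against control, quantile normalization gave 2107 lower genes, and no block gave 719 higher and 86 lower genes with 0 members lower. Cdkn1c was -0.021 under quantile normalization and Rian 0.036 when the Thy1+SSEA1- library labelled Dppa2/4 on day 4 was omitted. For loss of Thy1 among SSEA1- cells, a pseudocount of 0.1 gave 17 higher and 4 lower genes, no filter 0 and 0, quantile normalization 6 higher, no block 14 and 1, and leaving out that day 4 library 0 and 1, where Grb10 was -0.050. For Thy1-SSEA1+ against Thy1-SSEA1-, no filter gave 961 higher genes and 0 members higher, quantile normalization 1 member higher, and no block 366 higher and 721 lower genes, with 0 members higher and 1 lower. For GFP+ against Thy1-SSEA1+, no block gave 1523 higher and 2477 lower genes.

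For change per day, Thy1+SSEA1- alone gave 192 and 118 genes and Thy1-SSEA1- alone 252 and 163 genes (higher and lower), each with 0 members lower. In Thy1+SSEA1- alone the slope was 0.068 for Igf2, 0.054 for Meg3 and -0.078 for Peg10, and in Thy1-SSEA1- alone -0.091 for Dlk1 and -0.060 for H19. The Igf2 slope was 0.000318 with a pseudocount of 0.1, 0.000798 under quantile normalization and 0.025 without the day 4 library, where that of Peg3 was 0.0017. For the difference of the Dppa2/4 effect between gates, higher genes numbered 183 with a pseudocount of 0.1, 57 with no filter, 44 under quantile normalization and 181 without the day 4 library (163 lower). Days 8 to 14 alone gave 36 higher and 33 lower genes and 0 members higher. Igf2 was 0.19 without the day 4 library and 0.89 on days 8 to 14.

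When each stratum, pair or library was left out, lower genes for Dppa2/4 numbered 852 to 1492. Loss of Thy1 gave 0 to 3 higher and 0 to 4 lower genes. Gain of SSEA1 gave 459 to 1378 higher and 797 to 1929 lower genes, with 0 to 1 members higher and 1 to 4 lower. GFP+ gave 1965 to 2709 higher and 2583 to 3699 lower genes. Change per day gave 383 to 1336 and 211 to 1139 genes, with 0 to 2 members lower, and the difference between gates 5 to 181 and 8 to 163 genes, with 0 to 1 members higher. Values that changed sign ran from -0.13 to 0.19 (Cdkn1c) and -0.068 to 0.085 (Rian) for Dppa2/4. For loss of Thy1 they ran from -0.40 to 0.037 (Cdkn1c) and -0.050 to 0.19 (Grb10), for gain of SSEA1 from -0.53 to 0.14 (Dlk1) and -0.23 to 0.037 (Grb10), and for GFP+ from -0.25 to 0.23 (Peg3). Per day they ran from -0.016 to 0.066 (Dlk1), -0.064 to 0.0031 (Meg3), -0.016 to 0.077 (H19), -0.051 to 0.035 (Igf2), -0.027 to 0.0086 (Grb10) and -0.051 to 0.020 (Peg3), and for the difference between gates from -0.41 to 0.24 (Igf2).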
